A study of Mus musculus with 6 samples.

Results

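Genes used as markers of Schwann cells and their myelin were followed through freshly sorted cells of mouse hind-limb muscle. They were chosen by symbol: the transcription factor gene Sox10, the myelin protein genes Mbp, Pmp22, Mal and Prx, the calcium-binding protein gene S100b, and the surface protein genes Ngfr and Ncam1. All 8 were found among the 24062 genes of the normalised count table, which covers the Twist2 line, and 4 of them (Mbp, Pmp22, Prx and Ncam1) among the 4939 genes of the table in CPM (read counts scaled to library size), which covers both lines. For Sox10, S100b, Mal and Ngfr the Pax7 line was not analysed here. The 8 genes did not vary as a unit: between labelled and unlabelled cells of the Twist2 line, Sox10, Mbp and Mal were lower and Pmp22 and Ngfr higher in labelled cells, while Ncam1, S100b and Prx did not pass the test.

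The mice were adults on a C57BL/6 background and carried a tdTomato reporter at the Rosa26 locus (R26-tdTO+), which stays on in a cell and its descendants after Cre recombination. Labelled cells of the Twist2 line (Tw2pos, 2 libraries) and labelled cells of the Pax7 line (Pax7pos, 1 library) came from mice with Tw2-CreERT2/+ and Pax7-CreERT2/+, while unlabelled cells of the same lines formed Tw2neg (2 libraries) and Pax7neg (1 library). All animals had 3 tamoxifen treatments on alternate days, and muscle was taken 10 days later, so every group shares tamoxifen exposure and a Cre allele. CreERT2 is driven by Twist2, a gene of mesenchymal cells, or by Pax7, the marker gene of satellite cells, which are muscle stem cells. An unlabelled fraction is therefore a mixture of all sorted cells in which the reporter had not been switched on. The labels do not say whether animals were pooled, or whether the 2 libraries of a group came from separate mice, so p-values measure the spread between these libraries, which may be technical.

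Schwann cells are the glia of peripheral nerve. Myelinating Schwann cells wrap a motor or sensory axon in compact membrane held together by proteins such as myelin basic protein and peripheral myelin protein 22, whereas non-myelinating (Remak) Schwann cells ensheath several small axons and keep Ngfr and Ncam1. Sox10 is needed throughout the lineage and acts with Egr2 to switch on myelin genes. Muscle holds both kinds of cell along its intramuscular nerves, as well as terminal Schwann cells that cap the neuromuscular junction. Several of the 8 genes are known outside glia: Pmp22 in fibroblasts and epithelia, Ncam1 in satellite cells and denervated muscle fibres, Ngfr in mesenchymal cells and pericytes, and a longer transcription unit of Mbp, called golli, in blood cells. In bulk samples, fewer cells of a type and less RNA per cell cannot be told apart, and this applies to every value here.

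All 8 genes are protein-coding (positions in GRCm38, GENCODE M21). Sox10 lies at chr15:79154908-79165240 on the minus strand, Mal at chr2:127633226-127656695 on the minus strand and Ncam1 at chr9:49502136-49798925 on the minus strand. Ngfr lies at chr11:95568818-95587735 on the minus strand and Pmp22 at chr11:63128982-63159547 on the plus strand, so that no pair of the 8 are neighbours. S100b lies at chr10:76253853-76261159 and Prx at chr7:27499324-27520214, both on the plus strand. The position of Mbp is given with its values.

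Promoters of 5 of the 8 genes (Pmp22, S100b, Mal, Prx and Ngfr) were taken from the reference table (RefSeq, GRCm38.p6). Sox10 and Ncam1 had no entry there, and Mbp was not searched. The 250 bases before each annotated start were searched on both strands. The letters sought were ACAAAG and ACAAT, within sites of Sox proteins, and GCGTGGG, of Egr sites. Pmp22 has 4 annotated starts in that table, and its first and last are shown because the gene count adds RNA from all of them although their upstream sequences are unlike. The window before the first start (chr11:63128732-63128981, plus strand) is 48.8% G and C with 3 CG dinucleotides, and that before the last (chr11:63132553-63132802, plus strand) is 73.6% G and C with 27 CG dinucleotides, against medians of 52.4% and 6 over 32851 promoter windows of that length. Capitals mark the CG dinucleotides.
Pmp22 first start: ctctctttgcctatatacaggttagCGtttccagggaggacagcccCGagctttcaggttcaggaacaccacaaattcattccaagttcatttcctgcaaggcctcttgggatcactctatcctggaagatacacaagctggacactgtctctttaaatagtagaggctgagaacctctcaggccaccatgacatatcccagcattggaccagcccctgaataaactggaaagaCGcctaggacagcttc
Pmp22 last start: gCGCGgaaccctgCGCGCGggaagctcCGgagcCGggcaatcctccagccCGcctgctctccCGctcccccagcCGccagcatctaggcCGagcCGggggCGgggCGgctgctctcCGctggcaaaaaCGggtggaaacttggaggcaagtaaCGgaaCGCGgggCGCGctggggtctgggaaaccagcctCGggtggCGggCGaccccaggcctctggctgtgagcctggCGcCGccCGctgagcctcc

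Prx is shown because its window (chr7:27499074-27499323, plus strand) held a match to the Egr letters, found in no other of the 8 windows of these 5 genes, with the capitals marking CCCACGC, the reverse complement of GCGTGGG, at position -161 from the start. These letters occurred in 4.30% of the 32851 windows. ACAAAG and ACAAT were in 16.5% and 27.7% of all windows and in none of the 8. A match is a description of the letters, and a missing match says only that they are not in this window.
Prx: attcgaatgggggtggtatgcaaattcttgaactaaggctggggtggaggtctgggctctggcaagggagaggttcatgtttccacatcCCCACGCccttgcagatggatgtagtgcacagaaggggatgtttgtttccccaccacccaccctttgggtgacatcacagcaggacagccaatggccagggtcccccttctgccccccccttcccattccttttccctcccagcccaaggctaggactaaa

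The Twist2 libraries held 10902318 and 12425426 reads in Tw2pos and 13205751 and 13005707 in Tw2neg. In the CPM table, which holds 4939 genes and not 24062, Pax7pos held 6016469 reads and Pax7neg an inferred 7565797. These totals are therefore not to be set against those of Twist2. The library sizes behind the CPM values were 9572963 in Pax7pos and an inferred 12445892 in Pax7neg. They were 9710688 and 10262454 in Tw2pos and 15312683 and 15643678 in Tw2neg. The genes that drive Cre went with their labels: Twist2 was at 99.4 and 222 normalised counts in Tw2pos against 22.0 and 23.2 in Tw2neg, and Pax7 at 303 CPM in Pax7pos against 0.402 in Pax7neg. Within the Twist2 line, Pax7 was at 150.4 and 89.3 normalised counts in Tw2pos and 569 and 186 in Tw2neg, a difference that did not pass (limma adjusted p = 0.0803). The Tw2neg libraries differed from each other in marker levels. Endothelial markers (12 genes) summed to 51082 and 18529 normalised counts in replicates 1 and 2, pericyte and smooth muscle markers (10 genes) to 24144 and 8639, and T cell markers (9 genes) to 4566 and 9134. Among markers of other cells that use some of these genes, Mobp, Opalin and Olig2 of oligodendrocytes, Tyr of melanocytes, and Nefl and Slc18a3 of neurons were at 0 in every Twist2 library. The 8 oligodendrocyte markers summed to 24.2 and 21.7 normalised counts in Tw2pos and 119 and 73.6 in Tw2neg, the 6 melanocyte markers to 711 and 934 in Tw2pos and 245 and 223 in Tw2neg, and the 11 neuron markers to 982 and 1034 in Tw2pos and 213 and 165 in Tw2neg. Most of the oligodendrocyte sum in Tw2neg came from Mag (91.9 and 44.0, against 15.3 and 8.44 in Tw2pos), which is also among the compact myelin genes below. Most of the other sums came from Mitf (676 and 856 in Tw2pos, 224 and 214 in Tw2neg) for melanocytes and from Prph (790.4 and 772 in Tw2pos, 105 and 58.4 in Tw2neg) for neurons. Mitf, Mlana, Prph and Uchl1 passed as higher in Tw2pos in the test described next, and Nefh and Mag as lower.

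Tw2pos and Tw2neg were compared on log2 of the normalised count plus 1 with limma and Benjamini-Hochberg adjustment over the 14155 genes whose mean was 10 or more, with a threshold of 0.05 on the adjusted p. All 8 genes met that filter. Of them, 3 passed as lower and 2 as higher, against a background in which 38.6% of all genes tested passed, 20% as lower and 18.7% as higher. The libraries of the 2 groups did not overlap for 6 of the 8, 3 lower and 3 higher, which was true of 76.3% of all genes, 39.2% as lower and 37.1% as higher. The median log2 difference was 0.03 over the 8 genes and -0.04 over all genes tested.

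**Figure D1:**
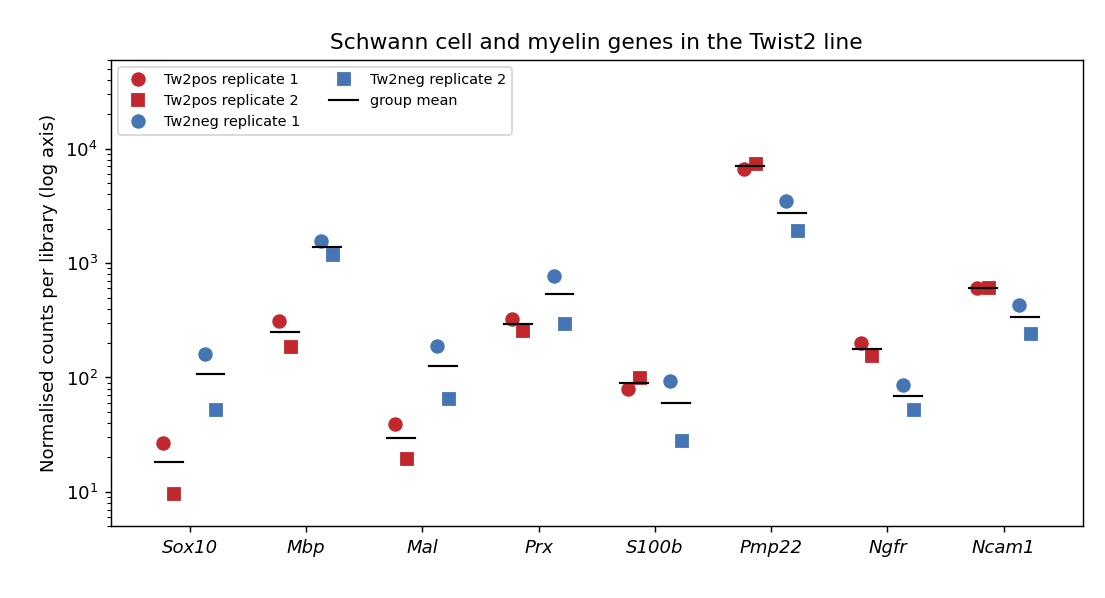
Normalised counts of the 8 genes in each Twist2 library (log axis), with Tw2pos left of Tw2neg, points for libraries and bars for group means. Sox10, Mbp and Mal lie lower in Tw2pos, Pmp22, Ngfr and Ncam1 lie higher, and the libraries of S100b and Prx overlap between groups.

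Sox10, the transcription factor that defines the Schwann lineage, was at 26.8 and 9.65 normalised counts in the Tw2pos libraries, from 21 and 8 reads, against 162 and 52.0 in the Tw2neg libraries, from 199 and 65 reads. Both Tw2pos values lay below both Tw2neg values, and the Tw2neg libraries themselves stood 3.11-fold apart. The log2 difference was -2.43 (SE 0.70, limma adjusted p = 0.0379). This call ended without Tw2neg replicate 1 (-1.62, limma adjusted p = 0.121), without Tw2pos replicate 2 (limma adjusted p = 0.132), with no filter on level (limma adjusted p = 0.0736), under quantile normalization (limma adjusted p = 0.0549) and without a variance trend (limma adjusted p = 0.0599).

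Mbp, a protein that binds the inner faces of the myelin membrane together, was at 309.8 and 186 normalised counts in Tw2pos against 1562 and 1185 in Tw2neg. The groups did not overlap, and the Tw2neg libraries stood 1.32-fold apart. The log2 difference was -2.50 (SE 0.29, limma adjusted p = 0.00253), and it passed in all 14 alternative fits, at -2.95 to -2.13. Mbp spans chromosome 18 from 82475146 to 82585637 on the plus strand (GRCm38, GENCODE M21) and has 14 coding transcripts whose starts cover 79434 bases, so the gene count does not separate the myelin transcripts from the golli unit. Leukocyte markers fell with it: all 12 macrophage and neutrophil markers were lower in Tw2pos, where they summed to 2148 and 2451 normalised counts, against 91556 and 91825 in Tw2neg. All 9 T cell markers tested were lower too, with sums of 98.2 and 212 in Tw2pos and 4566 and 9134 in Tw2neg, and their part in the Mbp difference was not tested.

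Mal, a membrane proteolipid that helps sort proteins into myelin, was at 39.5 and 19.3 normalised counts in Tw2pos, from 31 and 16 reads, against 189 and 64.8 in Tw2neg, from 232 and 81 reads. It followed the pattern of Sox10, with no overlap and a 2.91-fold gap between the Tw2neg libraries. The log2 difference was -1.96 (SE 0.61, limma adjusted p = 0.0471). The call ended without Tw2neg replicate 1 (-1.20, limma adjusted p = 0.134), without Tw2pos replicate 2 (limma adjusted p = 0.178) and with a mean of at least 50 required (limma adjusted p = 0.0528). It also ended with no filter (limma adjusted p = 0.0862), under quantile normalization (limma adjusted p = 0.0748) and without a variance trend (limma adjusted p = 0.0707).

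Pmp22, the tetraspan protein whose dose is altered in inherited demyelinating neuropathy, went the other way. It was at 6663 and 7337 normalised counts in Tw2pos against 3519 and 1921 in Tw2neg, so that both labelled libraries lay above both unlabelled ones. The log2 difference was 1.43 (SE 0.32, limma adjusted p = 0.0183). Without Tw2pos replicate 1 or replicate 2 the adjusted p by limma was 0.0507 or 0.0757.

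Ngfr, the p75 neurotrophin receptor, was at 199 and 156 normalised counts in Tw2pos against 85.4 and 52.0 in Tw2neg, with no overlap. The log2 difference was 1.39 (SE 0.34, limma adjusted p = 0.0228). It missed the threshold without Tw2pos replicate 1 (limma adjusted p = 0.163) or replicate 2 (limma adjusted p = 0.0802), and under scaling to library totals (0.94, limma adjusted p = 0.0591), which moved the median of all genes to -0.49.

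Ncam1, an immunoglobulin-domain adhesion molecule, was at 607 and 601 normalised counts in Tw2pos against 429 and 241 in Tw2neg. These groups did not overlap either, yet the difference of 0.91 missed the threshold (SE 0.30, limma adjusted p = 0.0548). It passed without Tw2neg replicate 1 (1.32, limma adjusted p = 0.00428), under quantile normalization (limma adjusted p = 0.0429) and on the recovered reads with DESeq2 (adjusted p = 0.0427). Exons of Ncam1 overlap the antisense gene Gm11149 and those of Prx overlap the antisense gene Gm15541. Reads of such pairs cannot be told apart, since no source used here states the strand.

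S100b, a calcium-binding protein common in glia, was at 79.0 and 98.9 normalised counts in Tw2pos against 92.7 and 28.0 in Tw2neg. The Tw2pos libraries lay near each other and inside or just above the range of Tw2neg, with a difference of 0.78 (SE 0.57, limma adjusted p = 0.320). Its direction depended on the Tw2neg library: the difference was -0.07 without replicate 2 and 1.63 (limma adjusted p = 0.0181) without replicate 1.

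Prx, a scaffold protein that links the outer Schwann cell membrane to dystroglycan through Drp2, was at 325 and 257 normalised counts in Tw2pos against 775 and 296 in Tw2neg. The higher Tw2pos library exceeded the lower Tw2neg library, and the difference was -0.73 (SE 0.45, limma adjusted p = 0.243). Without Tw2neg replicate 2 it was -1.42 (limma adjusted p = 0.0142), and without replicate 1 it was -0.03 (limma adjusted p = 0.906).

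Over the 14 alternative fits, which include edgeR and DESeq2 on recovered reads, the adjusted p ran between 2.73e-11 and 0.0114 for Mbp, between 3.94e-05 and 0.132 for Sox10 and between 0.000202 and 0.178 for Mal. It ran between 0.000192 and 0.0757 for Pmp22 and between 0.00118 and 0.163 for Ngfr. For Ncam1 it was 0.00367 to 0.215, for S100b 0.0181 to 0.870 and for Prx 0.0142 to 0.906. Mbp was thus the one gene of the 8 that passed in every fit.

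**Figure D2:**
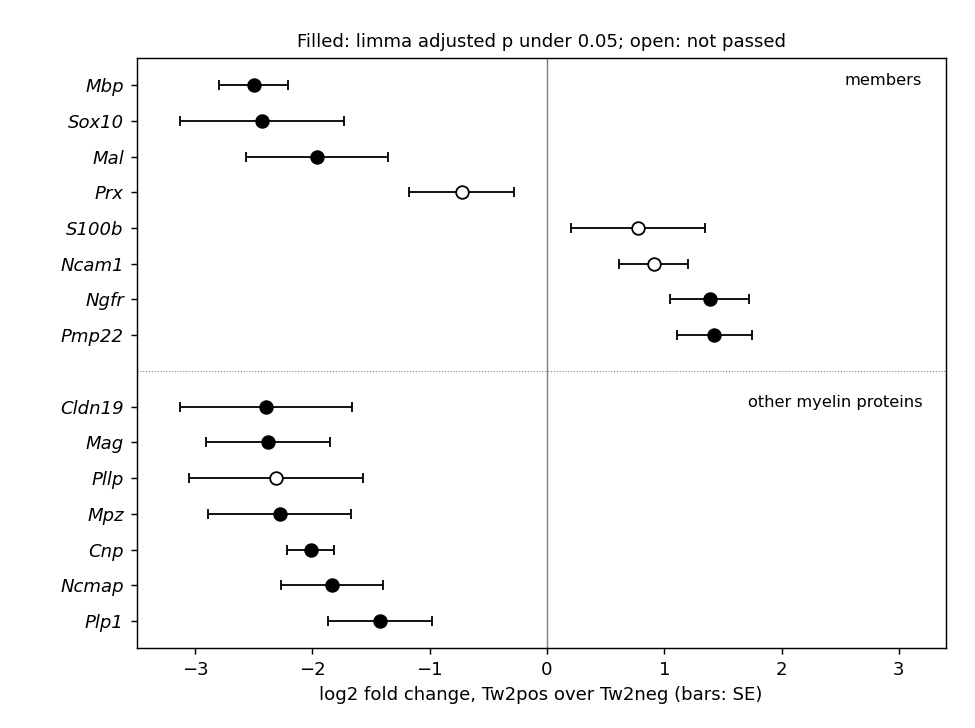
Log2 differences of the 8 genes between Tw2pos and Tw2neg (limma estimate, bars for the standard error). Mbp, Sox10 and Mal lie between -2.50 and -1.96, Pmp22 and Ngfr at 1.43 and 1.39, and Ncam1, S100b and Prx did not pass the adjusted threshold.

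Dividing by the length of all annotated exons allowed levels to be compared between genes. In Tw2pos, Pmp22 stood alone at 2974 ± 202 normalised counts per kb (SD, n = 2), followed by Ncam1 at 69.7 ± 0.507, S100b at 60.0 ± 9.46, Prx at 52.2 ± 8.64 and Ngfr at 51.4 ± 8.88. Mbp had 29.3 ± 10.4 per kb there, Mal 10.6 ± 5.15 and Sox10 5.97 ± 3.97. In Tw2neg, Pmp22 again led at 1156 ± 480 per kb (SD, n = 2), followed by Mbp at 162 ± 31.5, Prx at 96.0 ± 60.7, Mal at 45.6 ± 31.5, S100b at 40.7 ± 30.8, Ncam1 at 38.6 ± 15.3, Sox10 at 35.04 ± 25.5 and Ngfr at 19.9 ± 6.86. The rank thus changed for every gene but Pmp22. It changed most for Mbp, at rank 6 in Tw2pos and 2 in Tw2neg, and for Ncam1, at rank 2 in Tw2pos and 6 in Tw2neg. Mal was at rank 7 in Tw2pos and 4 in Tw2neg, and Ngfr at rank 5 in Tw2pos and 8 in Tw2neg. From Mal to Sox10 the Tw2neg levels lay within each other's spread, and both Ngfr libraries lay below both Ncam1 libraries. The same was true in Tw2pos of S100b, Prx and Ngfr, and of Mal and Sox10.

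The Tw2neg libraries also differed gene by gene in a way that split the set. Replicate 1 held 3.31-fold more S100b than replicate 2, 3.11-fold more Sox10, 2.91-fold more Mal and 2.62-fold more Prx. The ratio was 1.83 for Pmp22, 1.78 for Ncam1, 1.64 for Ngfr and 1.32 for Mbp. Thus 4 of the 8 genes were at a ratio of 2 or more, against 9.98% of 14155 genes, whose median ratio was 0.995. Summed markers of other cells moved in the same replicate by 2.76-fold for endothelium, 2.79-fold for pericytes and smooth muscle, 1.66-fold for satellite cells, 0.997-fold for macrophages and neutrophils, 0.476-fold for B cells and 0.4999-fold for T cells, and their part in these ratios was not tested.

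**Figure D3:**
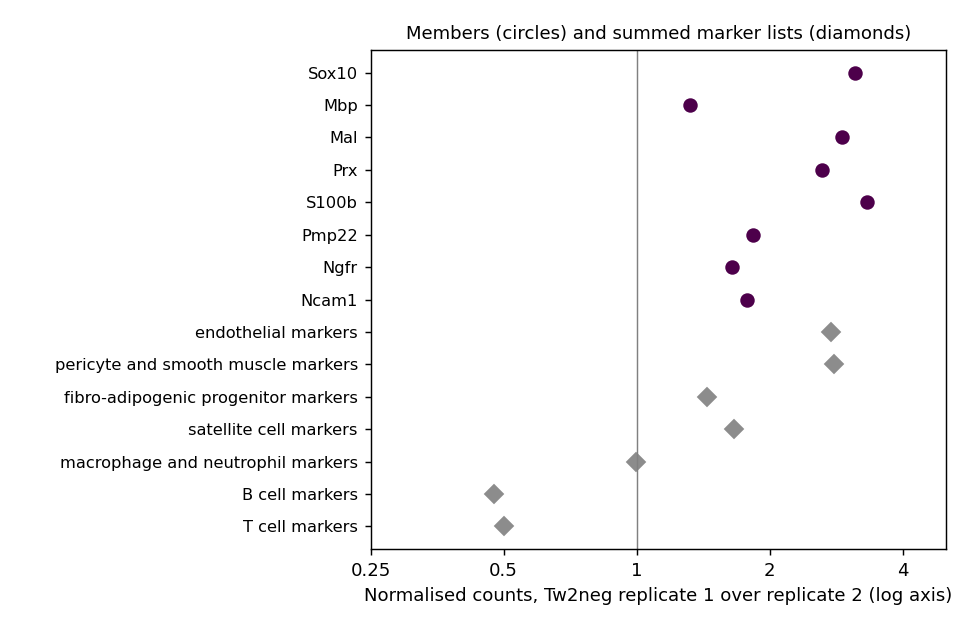
Ratio of normalised counts in Tw2neg replicate 1 over replicate 2 (log axis) for the 8 genes and for summed marker lists of other cell types. Sox10, S100b, Mal and Prx lie between 2.62 and 3.31, near endothelial and pericyte markers, whereas Mbp lies at 1.32.

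Other genes of the myelin programme were taken from lists by function. Each list is to be read against all genes tested, of which 18.7% passed as higher and 20% as lower, with a median of -0.04. Of 12 genes for compact myelin and its adhesion, 7 met the filter on level, of which 6 fell in Tw2pos and none rose. Cnp, an enzyme of non-compact myelin that also occurs in other cells, was at 222 and 209 normalised counts in Tw2pos against 777 and 979 in Tw2neg (-2.01, SE 0.20, limma adjusted p = 0.00162), and passed in all 14 alternative fits. Cldn19, the claudin of myelin tight junctions, was at 31.9 and 9.65 in Tw2pos against 169 and 56.0 in Tw2neg (-2.40, limma adjusted p = 0.0455), a call that held in 8 of 14 alternatives. The direction was shared with Sox10, Mbp and Mal, and Cldn19 had, like Sox10 and Mal, more counts in Tw2neg replicate 1 than in replicate 2. Endothelial markers fell too, 10 of 12 passing as lower and none as higher, with sums of 10791 and 8107 in Tw2pos against 51082 and 18529 in Tw2neg. Their part in the falls of these genes, Sox10 and Mal was not tested. The lists were selected with results of these data known, so their counts describe and do not add independent evidence.

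The 6 genes of myelin lipid synthesis showed no passing change, with a median of 0.12. Cers2, a ceramide synthase, was at 1914 and 2042 normalised counts in Tw2pos against 1713 and 1648 in Tw2neg. At far lower counts, Ugt8a was at 11.5 and 2.41 in Tw2pos against 47.2 and 11.2 in Tw2neg (-1.89, SE 0.92, limma adjusted p = 0.150). The differences were -0.44 for Fa2h (limma adjusted p = 0.617) and 0.27 for Gal3st1 (limma adjusted p = 0.819). Of 12 Schwann lineage regulators, 8 met the filter, 3 rose and none fell, with a median of 0.69. Of all genes tested, 18.7% passed as higher and 20% as lower, with a median of -0.04. Regulators below the filter were not tested. Among them, Foxd3 was at 2.55 and 0 in Tw2pos against 21.1 and 6.397 in Tw2neg. Sox2 was at 0 and 1.21 in Tw2pos against 8.13 and 7.196 in Tw2neg. Both were thus lower in Tw2pos, while Tfap2a overlapped between groups and Pou3f2 had at most 1 read per library. Egr2, the partner of Sox10 at myelin genes and also an immediate-early gene of many cells, was at 2208 and 1909 in Tw2pos against 1297 and 887 in Tw2neg (0.94, limma adjusted p = 0.0262, held in 10 of 14 alternatives). Nr2f1, a nuclear receptor, was at 52.3 and 59.1 in Tw2pos against 17.1 and 5.597 in Tw2neg (2.37, limma adjusted p = 0.0222). Egr2 therefore moved opposite to Sox10 and Mbp in these fractions.

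Of 12 genes used for non-myelinating Schwann cells, 9 met the filter, 3 rose and 2 fell, with a median of 0.04. Over all genes tested, 18.7% passed as higher and 20% as lower. Apod, a secreted lipocalin also made by fibroblasts, was at 14278 and 20887 normalised counts in Tw2pos against 4366 and 3815 in Tw2neg (2.08, limma adjusted p = 0.00405). Scn7a, a sodium channel subunit, was at 2404 and 2259 in Tw2pos against 806 and 649 in Tw2neg (1.69, limma adjusted p = 0.00223), and L1cam, an adhesion molecule of axons and Remak cells, at 77.8 and 73.6 in Tw2pos against 476 and 367 in Tw2neg (-2.45, limma adjusted p = 0.00156). These 3 calls passed in all 14 alternatives, and they point in both directions within a list named for the same cell. Fibro-adipogenic progenitor markers rose in the same comparison, 9 of 12 passing, with sums over 12 genes of 1.12e+06 and 1.33e+06 in Tw2pos against 319707 and 221913 in Tw2neg, and their part in these rises, and in those of Pmp22 and Ngfr, was not tested.

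Around Ngfr, 14 of 15 neurotrophin ligands, receptors and partners met the filter, of which 7 rose and none fell, with a median of 1.48. Among all genes tested, 18.7% passed as higher and 20% as lower, with a median of -0.04. Ntrk2, the receptor of brain-derived neurotrophic factor, was at 2918 and 3384 normalised counts in Tw2pos against 947 and 624 in Tw2neg (2.03, limma adjusted p = 0.00284). Its ligand Bdnf was at 190.0 and 241 in Tw2pos against 61.8 and 21.6 in Tw2neg (2.51, limma adjusted p = 0.0131), and Maged1, which binds the intracellular part of Ngfr, at 5353 and 5148 in Tw2pos against 2266 and 1225 in Tw2neg (1.65, limma adjusted p = 0.0107). Ligand and receptors were thus higher in the same labelled fraction as Ngfr, and all 3 calls passed in all 14 alternatives.

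Among 10 genes of the NCAM family and of polysialic acid synthesis, 9 met the filter, 3 rose and 1 fell. The shares over all genes tested were 18.7% higher and 20% lower. The enzymes that add polysialic acid to Ncam1 went opposite ways. St8sia2 was at 150.4 and 165 normalised counts in Tw2pos against 38.2 and 7.996 in Tw2neg (3.08, limma adjusted p = 0.0175), and St8sia4 at 48.4 and 41.0 in Tw2pos against 870.1 and 1314 in Tw2neg (-4.55, limma adjusted p = 0.000482). Fgfr1, a receptor that Ncam1 binds, was at 6531 and 7259 in Tw2pos against 2765 and 1936 in Tw2neg (1.57, limma adjusted p = 0.00581).

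Of 5 relatives of Pmp22, 4 met the filter, 2 rose and none fell, with a median of 1.40. For the families given here, the shares over all genes tested were 18.7% higher and 20% lower. Emp2 was at 1730.0 and 1803 normalised counts in Tw2pos against 894 and 469 in Tw2neg (1.45, limma adjusted p = 0.0164), and Tmem47 at 983 and 1116 in Tw2pos against 547 and 239 in Tw2neg (1.53, limma adjusted p = 0.0257). Emp1, the most abundant, was at 45326 and 52688 in Tw2pos against 23556 and 15572 in Tw2neg (1.35, limma adjusted p = 0.0521). Of 13 relatives of Mal in the MARVEL family 11 met the filter, 3 rose and 2 fell. Cmtm4 was at 924 and 757 in Tw2pos against 417 and 259 in Tw2neg (1.34, limma adjusted p = 0.0133), and the tight-junction gene Marveld2 at 15.3 and 6.03 in Tw2pos against 74.8 and 95.1 in Tw2neg (-2.996, limma adjusted p = 0.00764). In the S100 family 13 of 16 met the filter, 7 rose and 2 fell, and those that fell were the neutrophil genes S100a9 (140.2 and 77.2 in Tw2pos, 20729 and 21018 in Tw2neg) and S100a8 (89.2 and 61.5 in Tw2pos, 10290.3 and 12154 in Tw2neg). Among relatives of Sox10, Sox8 was at 162 and 94.1 in Tw2pos against 43.9 and 29.6 in Tw2neg (1.75, limma adjusted p = 0.0186), and Sox9 at 298 and 332 in Tw2pos against 408 and 282 in Tw2neg (-0.11, limma adjusted p = 0.747).

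Of 13 genes for partners of periaxin and dystroglycan and for the laminin basement membrane, 12 were tested, of which 4 rose and 2 fell, with a median of 0.76. For this list and those that follow, the shares over all genes tested were 18.7% higher and 20% lower. Lama2, the laminin chain of Schwann cell and muscle basement membrane, was at 15748 and 15695 normalised counts in Tw2pos against 5129 and 3446 in Tw2neg (1.90, limma adjusted p = 0.00511). Ezr, an actin-linking protein of Schwann cell microvilli and of leukocytes, was at 816 and 925 in Tw2pos against 2425 and 5225 in Tw2neg (-2.03, limma adjusted p = 0.00886). Of 10 genes for signals between axon and Schwann cell 4 rose and none fell (median 0.98), led by Gas6, a ligand of TAM receptors, at 12651 and 12919.6 in Tw2pos against 4424 and 2259.6 in Tw2neg (2.02, limma adjusted p = 0.00833). Nrg1 (-1.50, limma adjusted p = 0.0796), Dhh (-0.86, limma adjusted p = 0.212) and Gpr126 (-0.63, limma adjusted p = 0.155) were lower without passing. Erbb2, Lgi4 and Adam17 were higher without passing. Of 10 nodal and paranodal adhesion genes 9 were tested, of which 4 rose and none fell (median 0.93), with Cadm3, an adhesion molecule of the internode, at 2550 and 3082 in Tw2pos against 1051 and 717 in Tw2neg (1.69, limma adjusted p = 0.00445).

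The 4 genes of the CPM table were then compared across both lines, in a fit of all 6 libraries. Each Pax7 group has 1 library, whose spread was taken to be that of the Twist2 groups. The genes of that table were chosen by the authors partly on differences from Tw2neg. Mbp was at 25.02 and 15.0 CPM in Tw2pos, 15.4 in Pax7pos, 125 and 94.7 in Tw2neg and 63.4 in Pax7neg. Pmp22 was at 538 and 593 CPM in Tw2pos, 192 in Pax7pos, 283 and 154 in Tw2neg and 286 in Pax7neg. Mbp was thus higher in both Tw2neg libraries than in either Tw2pos library, and its Pax7pos value lay near those of Tw2pos, while Pmp22 was highest in Tw2pos. Prx was at 26.3 and 20.8 CPM in Tw2pos, 8.46 in Pax7pos (81 reads), 62.2 and 23.7 in Tw2neg and 16.4 in Pax7neg. Ncam1 was at 49.0 and 48.5 CPM in Tw2pos, 251 in Pax7pos, 34.4 and 19.2 in Tw2neg and 17.0 in Pax7neg. Ncam1 had its highest level in Pax7pos and Prx its lowest.

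**Figure D4:**
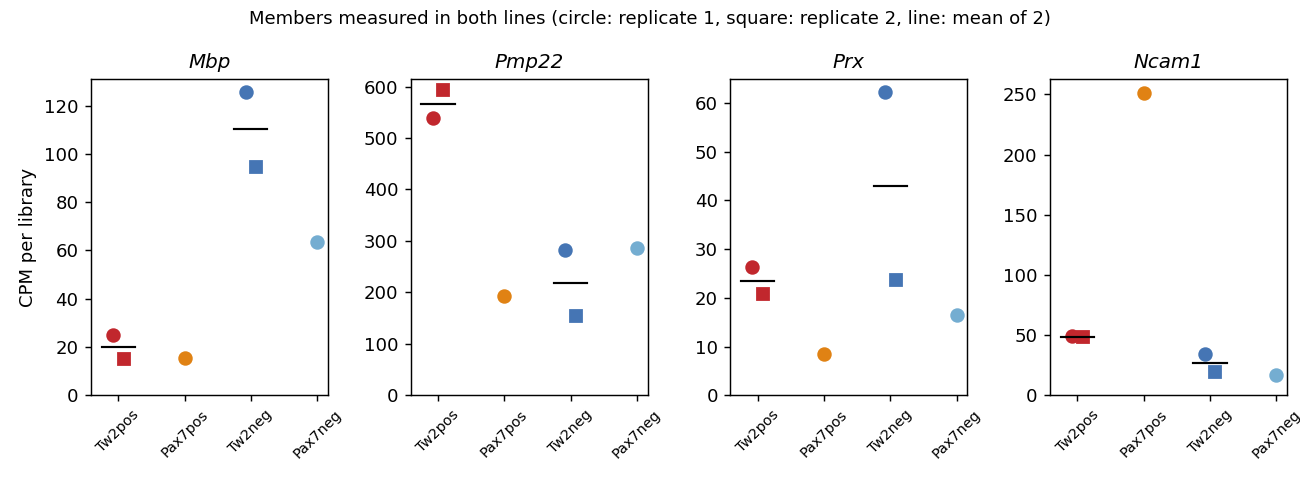
CPM of Mbp, Pmp22, Prx and Ncam1 in all 6 libraries (linear axis), points for libraries, with each labelled group left of its unlabelled group. Ncam1 peaks in Pax7pos at 251 CPM, Pmp22 in Tw2pos at 538 and 593 CPM, and Mbp lies at 15.0 to 25.02 CPM in the labelled libraries against 63.4 to 125 CPM in the unlabelled ones.

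Between the labelled fractions, Tw2pos against Pax7pos, 1 of 4 genes passed as higher and 1 as lower, where 59.6% of 4790 genes tested passed, 33.9% as higher and 25.7% as lower. Pmp22 was higher in Tw2pos by a log2 difference of 1.55 (SE 0.42, limma adjusted p = 0.0147) and Ncam1 lower by a log2 difference of -2.34 (SE 0.39, limma adjusted p = 0.00212), and both passed in all 12 alternative fits. Prx missed the threshold at 1.36 (SE 0.55, limma adjusted p = 0.0616) and passed when Tw2neg replicate 1 or 2 was left out of the estimate of spread (limma adjusted p = 0.00119 and 0.00106), with a range of 0.00106 to 0.601 over 11 alternatives. Mbp differed by 0.32 (SE 0.40, limma adjusted p = 0.499), with its sign turning under quantile normalization (-0.34), in DESeq2 (-0.05) and without Tw2pos replicate 1 (-0.03). The median over all genes tested was 0.41 and moved to -0.16 under quantile normalization, where 852 genes passed as higher and 995 as lower.

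Partners of these genes passed in both directions between Tw2pos and Pax7pos. Of 11 partners of periaxin and dystroglycan none passed as higher in Tw2pos and 2 as lower, of 4 nodal and paranodal genes 1 and 1, of 3 SoxE and SoxD factors none and 1, and both of 2 lineage regulators passed as lower, against the background of 25.7% lower. All 5 axon signal genes and all 4 non-myelinating markers with values passed as higher in Tw2pos, and 2 of 6 neurotrophin genes did, against 33.9%. Drp2, which joins periaxin to dystroglycan, had 719 CPM in Pax7pos against 14.6 CPM in Pax7neg, and was lower in Tw2pos than in Pax7pos by a log2 difference of -3.82 (SE 0.39, limma adjusted p = 0.000232). Prx itself was at 8.46 CPM in the same library. Sox9 was at 360 CPM in Pax7pos and 26.0 in Pax7neg (Tw2pos against Pax7pos -3.77, limma adjusted p = 0.000142). Cadm4, a Schwann cell adhesion molecule, was at 121 CPM in Pax7pos and 11.4 in Pax7neg (-4.22, limma adjusted p = 0.000476), and Egr2 at 367 in Pax7pos and 61.5 in Pax7neg (-1.14, limma adjusted p = 0.0241, held in 9 of 12 alternatives). Ntrk2 and Cadm3 were higher in Tw2pos. Ntrk2 was at 2.30 CPM in Pax7pos and 84.5 in Pax7neg (6.27, limma adjusted p = 2.52e-05), and Cadm3 at 3.76 in Pax7pos and 75.2 in Pax7neg (5.58, limma adjusted p = 3.35e-05). Cnp was at 5.22 CPM in Pax7pos and 61.7 in Pax7neg, a log2 difference of CPM plus 10 of -2.24, without a test. Satellite cell markers, 10 genes with values, summed to 1216 and 1340.4 CPM in Tw2pos and 6662 CPM in Pax7pos, and 9 of the 10 were lower in Tw2pos. Their part in the Ncam1 difference was not tested.

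Pax7pos and Pax7neg have 1 library each, so they were set side by side without a test, and a log2 difference of CPM plus 10 of at least 2 was taken as large, a size reached by 18.4% of 4939 genes, 3.83% as higher and 14.6% as lower. Ncam1, at 3.27, was the 41st highest of the 4939, from 2403 reads in Pax7pos and 212 in Pax7neg. The Pax7neg reads given here were inferred from its CPM. Mbp differed by -1.53 (147 reads in Pax7pos, 789 in Pax7neg), Pmp22 by -0.55 (1840.0 in Pax7pos, 3565 in Pax7neg) and Prx by -0.52 (81 in Pax7pos, 204 in Pax7neg), none of them past that size. Under quantile normalization the Prx difference turned to 0.30. Leukocyte and endothelial RNA differed between these libraries as well: macrophage and neutrophil markers summed to 101 CPM in Pax7pos and 4724 in Pax7neg, and endothelial markers to 211 CPM in Pax7pos and 1591 in Pax7neg. Their part in the Mbp difference was not tested.

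Between the unlabelled fractions, Tw2neg against Pax7neg, none of the 4 genes passed by limma and none had an unadjusted p under 0.05, where 0.230% of 4790 genes passed, 0.146% as higher and 0.0835% as lower. The log2 differences were 0.77 for Mbp (SE 0.40, limma adjusted p = 0.410), -0.46 for Pmp22 (SE 0.42, limma adjusted p = 0.663), 1.18 for Prx (SE 0.55, limma adjusted p = 0.358) and 0.57 for Ncam1 (SE 0.39, limma adjusted p = 0.554). Leaving out Tw2neg replicate 1 brought Pmp22 past the threshold (-0.89, limma adjusted p = 0.0421), and leaving out replicate 2 did so for Prx (1.86, limma adjusted p = 0.00973) and Ncam1 (0.97, limma adjusted p = 0.0255). Over all alternatives the highest adjusted p was 0.998 for Pmp22 and Ncam1 and 0.662 for Prx.

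The difference between the lines in the labelled minus unlabelled contrast was tested in the same fit, where 36.2% of 4790 genes passed. The Pax7 contrast within it is 1 library against 1, so its p-values rest on the spread of the Twist2 groups. For Pmp22 the Twist2 contrast exceeded the Pax7 contrast by 2.01 (SE 0.60, limma adjusted p = 0.0331), among 23.4% of genes that passed as higher. The call ended under quantile normalization (1.83, limma adjusted p = 0.0857) and without Tw2pos replicate 2 (limma adjusted p = 0.0693). For Ncam1 it was -2.91 (SE 0.56, limma adjusted p = 0.00638), among 12.8% that passed as lower, and it passed in all 10 alternatives. Mbp, at -0.45 (SE 0.56, limma adjusted p = 0.538), and Prx, at 0.18 (SE 0.77, limma adjusted p = 0.866), did not pass.

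The authors' deposited table gives log2 ratios of each group over Tw2neg. In the authors' deposited table Ncam1 is at 0.84 in Tw2pos, 3.18 in Pax7pos and -0.63 in Pax7neg, and Mbp at -2.40 in Tw2pos, -2.76 in Pax7pos and -0.79 in Pax7neg. Pmp22 in the authors' deposited table is at 1.37 in Tw2pos, -0.18 in Pax7pos and 0.39 in Pax7neg, and Prx at -0.84 in Tw2pos, -2.22 in Pax7pos and -1.34 in Pax7neg. All of these ratios share the Tw2neg libraries as denominator.

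Likeness of profile was measured over the 6 libraries as the Euclidean distance between log2(CPM + 1) values centred on each gene's mean. Each gene was compared with 4712 others at 10 CPM or more on average, and predicted genes with Gm or Rik names were left out. Nearest to Mbp were Csf2rb2, a cytokine receptor subunit of blood cells, at 0.61, and Arhgap19 at 0.64, against a median distance of 3.66. Csf2rb2 has a near-identical paralogue, so its count is uncertain. Nearest to Pmp22 were Mb21d2 at 0.13 and Adamts15, a secreted metalloprotease, at 0.25 (median 2.59). Nearest to Prx were the caveolin gene Cav2 at 0.35 and the integrin gene Itgb4 at 0.49 (median 2.91), and nearest to Ncam1 were Pde10a at 0.31 and Auts2 at 0.37 (median 3.87). Distances among the 4 genes were larger: Mbp and Prx were 2.20 apart, Pmp22 and Prx 2.35, Pmp22 and Ncam1 3.55, Mbp and Pmp22 4.05, Prx and Ncam1 4.46, and Mbp and Ncam1 5.55. None of the 4 was among the 2 nearest genes of another.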

How the data were processed

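RNA of 6 libraries was sequenced by the authors, and GRCm38/mm10, TopHat2 2.0.0 and DESeq2 1.6.3 are named per the submitters' processing notes, while no source used here gives the read counter, annotation or strand. The deposited normalised signal (normalised counts) of the 4 Twist2 libraries was divided by the value of 1 read, which gave whole reads for 100% of values within 0.01. The deposited CPM table holds the authors' group means for Twist2, and those reads were used to rebuild per-library CPM. Reads of the 2 Pax7 libraries were inferred from their CPM in the same way. Those of Pax7neg are less certain, because none of its values stood at 1 read. The deposited log2 ratios are the authors' own, over Tw2neg.

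Tests used limma 3.58.1 (R 4.3.3) with a variance trend on log2 of the value plus 1, over genes whose mean was 10 or more, with 2 residual degrees of freedom and 4.00 or 5.76 prior degrees of freedom, and with Benjamini-Hochberg adjustment over all genes tested. Pax7pos and Pax7neg were set side by side without a test, on log2 of CPM plus 10. edgeR 4.0.16 and DESeq2 1.42.0 on recovered reads, other pseudocounts, filters and scalings, and each Twist2 library left out were alternatives. With a library left out, the lone one is assumed to vary like the other groups. Code was tested on simulated data. Python 3.11.15, numpy 2.4.6, pandas 2.3.3 and matplotlib 3.10.9 were used.

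The 8 genes, the gene lists and the motifs were chosen with earlier results of these data known. All 8 genes are named, and from each list up to 3 genes with the highest mean and the largest passing change in each direction. Some of these are not reported here. Positions are 1-based, from GENCODE M21 (GRCm38), and promoters from RefSeq. A fold change on the log2 scale with a pseudocount understates low genes. Replicates correlated at 0.982 in Tw2pos and 0.960 in Tw2neg across 14155 genes, which are not independent.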

Additional observations from a re-analysis of the deposited data

Results flagged for a closer look

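These results differed between the lines by a test of the difference in the labelled minus unlabelled contrast. For Pmp22 the Twist2 contrast exceeded the Pax7 contrast by a log2 difference of 2.01 (SE 0.60, limma adjusted p = 0.0331), with 538 and 593 CPM in Tw2pos, 192 in Pax7pos, 283 and 154 in Tw2neg and 286 in Pax7neg. For Ncam1 it was -2.91 (SE 0.56, limma adjusted p = 0.00638), with 49.0 and 48.5 CPM in Tw2pos, 251 in Pax7pos, 34.4 and 19.2 in Tw2neg and 17.0 in Pax7neg. The Pax7 line has 1 library in each group, so its own spread was not measured and the test borrows that of the Twist2 groups.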

How the results depend on the processing

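Over the alternatives, 209 values of single genes kept their direction and side of the threshold (or moved within counting error), 18 lost the call, 12 gained one, 7 moved and 6 changed sign. Between Tw2pos and Tw2neg, 5 of the 8 genes passed, against 3 without a filter on level, 3 without a variance trend and 1 to 6 with a library left out. All calls in that comparison numbered 2578 to 7370 with a library left out, and split into 1607 higher and 5257 lower under library total scaling and 3213 and 2339 under quantile normalization. Between Tw2pos and Pax7pos, 1501 genes passed with a mean of at least 50 CPM, 1847 under quantile normalization and 1635 to 3738 with a library left out, and 2 to 3 of the 4 genes did. Between Tw2neg and Pax7neg, 17 passed with a pseudocount of 0.5, 1 with 5, 3 without a filter, 18 with a mean of at least 50 CPM, 1 under quantile normalization, 1 without a variance trend, and 43 to 1038 with a library left out, with 0 to 2 of the 4 genes. For the difference between the lines, 979 passed with a mean of at least 50 CPM, 958 under quantile normalization (1 of the 4 genes) and 935 to 3106 with a library left out (1 to 2 of the 4 genes). Between Pax7pos and Pax7neg, 1640 genes were past the size with a pseudocount of 1, 573 with 20, and 604 with a mean of at least 50 CPM.

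Signs changed for S100b between Tw2pos and Tw2neg (-0.0675 to 1.63 with a library left out), for Mbp between Tw2pos and Pax7pos (-0.34 under quantile normalization, -0.0508 in DESeq2, -0.0312 to 0.67 with a library left out), and for Prx in the difference between the lines (-1.08 under quantile normalization, -0.50 to 0.86 with a library left out). The cause was not tested. Of 64 list genes named as passing between Tw2pos and Tw2neg, 38 passed in all alternatives. Replicate numbers gave no pairing that the labels explain: same-numbered libraries deviated together at r = 0.263, and a fit with the replicate block passed 6627 genes (3205 higher, 3422 lower), Prx (adjusted p = 0.0247) and Ncam1 (adjusted p = 0.00367) by limma included. The planned edgeR and DESeq2 fits of Tw2neg against Pax7neg and of the difference between the lines were not run, because the inferred reads of Pax7neg were not accepted as whole reads. Sox10, with 8 reads in 1 library, is the least certain of the 8 by depth.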
